A study of Mus musculus with 19 samples.

Results

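ATP-binding cassette (ABC) transporters are a family of membrane pumps, and here they were all the mouse genes whose symbols run from the A to the G subfamily of the Abc nomenclature. The gene lists of the study's files held 50 such genes. The bulk table of 13202 genes listed 34 of them, 26 passed a filter on low values and were tested, and 8 were under it. The other 16 were listed only in the single-cell matrices. The study asked what loss of BAP1, a nuclear deubiquitinase that acts as a tumour suppressor in melanocytic tumours, and the site of a tumour do to mouse melanocytic cells. Bulk RNA-seq covered Melan-a, an immortalised line of mouse melanocytes. The libraries were BAP1 WT (wild type, 2 cultures) and BAP1 KO clones 1 to 4 (knockouts made with CRISPR-Cas9, 2 cultures each), 10 in all, grown without any drug. Tumours were raised by injecting wild-type or knockout Melan-a cells into syngeneic mice, under the skin or into the eye, and 4 single-cell matrices came from them, labelled WT skin and KO skin, WT ocular and KO ocular. Each matrix came from 1 tumour, by the study's design text, its genotype and site are known only from its name, and which clone was grafted is not stated. Every bulk comparison set edited clones against an unedited line, so loss of Bap1 and the passage through editing and cloning cannot be told apart. The labels call the cultures biological replicates without saying how early they were separated, so p-values for a clone measure the spread between these cultures.

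An ABC protein couples the binding and hydrolysis of ATP at a pair of nucleotide-binding domains to the movement of a substrate across a membrane. The A subfamily moves lipids, members of the B, C and G subfamilies export drugs, conjugates, peptides and sterols, the D subfamily imports fatty acids into peroxisomes or works in the lysosome, and the E and F proteins have no membrane part and act on ribosomes. In pigment cells the family is known for drug efflux and for the porphyrin and lipid traffic of melanosomes. Abcc2 (also called MRP2) exports glutathione and glucuronide conjugates and is best known from the bile canaliculus of the liver. Abca12 loads glucosylceramide into the lamellar granules of keratinocytes and is the gene of harlequin ichthyosis. Abcg2 (also called BCRP) exports drugs, porphyrins and urate.

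Between 30770592 and 46837289 reads were recovered per bulk library. Normalised Bap1 reads were 4450 and 4392 in the WT cultures and between 8.13% and 27.0% of their mean in the 8 knockout cultures, lower in each clone by limma (adjusted p at most 6.69e-06). All 14 melanocytic marker genes were in the bulk table, and their summed normalised reads ran from 2220750 to 2263775 in WT and from 1805229 to 2405645 in the clones. Of 12 macrophage markers 4 were in the table, and they summed to 1151 to 1198 in WT, 979 to 1085 in clones 1 and 2, 1896 to 1912 in clone 3 and 1343 to 2516 in clone 4. Of 8 endothelial markers 5 were in the table, at 1708 to 1722 in WT and 722 to 1459 in the clones. A list of Schwann cell markers summed to 24317 to 24662 in WT, 16814 to 21818 in clone 1 and 5659 to 10308 in clones 2 to 4, and the part of these lists in the results was not tested. The WT cultures resembled each other more than the cultures of any clone did, with a mean chi-square of 2.41 per gene against 10.3 to 68.4, but they differed by more than sampling noise and were counted as 2 samples.

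Of the 26 tested ABC genes, 2 were called in clone 1 against WT, 9 in clone 2, 13 in clone 3 and 12 in clone 4, at an adjusted p under 0.05 by limma over all 10803 genes tested. The share of all tested genes called was 3.5%, 26.1%, 39.8% and 36.5% in the same order, so the counts of ABC genes lay near the share of genes in general. Both members called in clone 1 rose, 3 rose and 6 fell in clone 2, 6 rose and 7 fell in clone 3, and 6 rose and 6 fell in clone 4. Of all genes, clone 1 had 1.15% that rose and 2.35% that fell, clone 2 had 12% and 14.1%, clone 3 had 19.9% and 20% and clone 4 had 19.3% and 17.2%. The median difference of the tested members was 0.00, -0.02, 0.06 and -0.08 on the deposited log2-like scale in clones 1 to 4, beside -0.02, 0.03, 0.01 and 0.04 for all genes tested. In all, 16 members were called in at least 1 clone (57.3% of all genes) and 10 in none. The count for clone 2 fell to 5 without either WT culture and rose to 14 without either culture of clone 4.

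**Figure D1:**
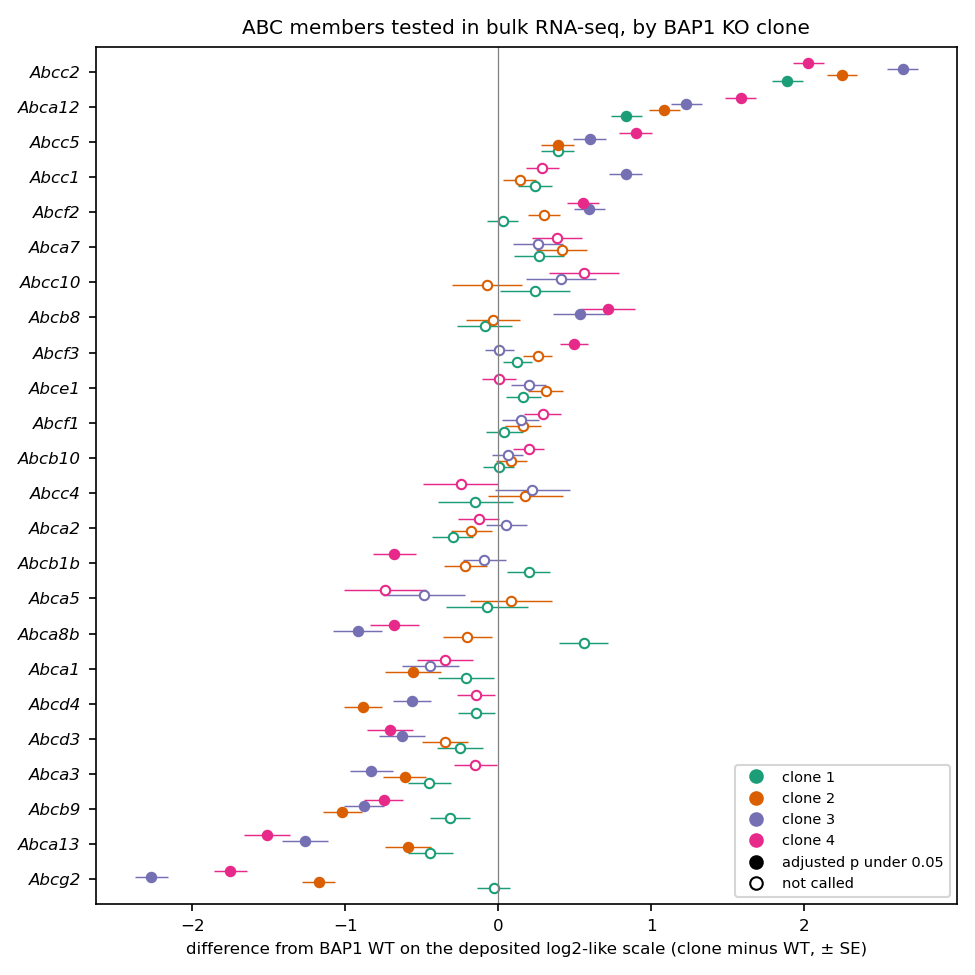
Difference of 24 of the 26 tested ABC genes (rows) from BAP1 WT in BAP1 KO clones 1 to 4, on the deposited log2-like scale (x axis), with points for the estimates, bars for ± 1 standard error and filled points for an adjusted p under 0.05 by limma. Abcc2 and Abca12 are filled to the right in each of the 4 clones, while Abcg2 lies at -0.03 in clone 1 and between -2.27 and -1.17 in clones 2 to 4.

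The members called with one sign in all 4 clones were Abcc2 and Abca12, and both rose. That is 2 of 26, where 2.1% of all genes were called in all 4 clones with one sign and 0.528% rose in all 4. The 4 contrasts share the WT cultures.

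Abcc2 (ENSMUSG00000025194) had 1281 and 1244 normalised reads in the WT cultures. Clone 1 had 5088 and 5273, clone 2 had 7013 and 6373, clone 3 had 9339 and 8397 and clone 4 had 5745 and 5678. Every knockout culture lay above both WT cultures. The ratio of the mean normalised reads to WT was 4.10, 5.30, 7.03 and 4.53 in clones 1 to 4. On the log2-like scale it rose by 1.89, 2.25, 2.64 and 2.02 (SE 0.10 each), with adjusted p-values by limma of 6.08e-06, 4.21e-07, 7.31e-08 and 5.96e-07. The clones differed from each other in size, with clone 3 highest (limma F test among the clones, adjusted p = 0.00113).

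Abca12 (ENSMUSG00000050296) had 994 and 982 normalised reads in WT. The cultures of clone 1 had 1900 and 1915, those of clone 2 had 2361 and 2246, those of clone 3 had 2768 and 2374 and those of clone 4 had 3304 and 3358. The 8 knockout cultures again all lay above WT, and the order of the clones was not that of Abcc2, since clone 4 was highest here. The ratio to WT was 1.93, 2.33, 2.60 and 3.37. Abca12 rose by 0.84, 1.09, 1.23 and 1.58 (SE 0.10) on the log2-like scale, with adjusted p-values by limma of 0.00173, 5.01e-05, 1.56e-05 and 2.45e-06, and it differed among the clones (adjusted p = 0.00149). In 18 of 18 alternative treatments of the bulk data, each of these genes was called in all 4 clones.

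With the clone as the unit, which sets the means of 4 clones against 1 WT mean, no member passed limma's threshold and neither did any of the 10803 genes. The difference was 2.20 for Abcc2 (unadjusted p = 0.000193, adjusted p = 0.718 by limma) and 1.18 for Abca12 (unadjusted p = 0.00478, adjusted p = 0.735 by limma). At an unadjusted p under 0.05 there were 3 members, the third being Abcb9, and 671 genes. edgeR called 0 members in this comparison and DESeq2 called 2, which were Abcc2 (adjusted p = 2.61e-08) and Abca12 (adjusted p = 0.0299). The number of all genes called by edgeR or DESeq2 is not given here, so these 2 calls have no share beside them. All 8 knockout cultures lay above both WT cultures for 5 members (Abcc2, Abca12, Abcc5, Abcc1 and Abca7) and below for 5 (Abca13, Abcb9, Abcd3, Abcd4 and Abca1), where 10.9% of all genes lay above and 12.1% below.

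**Figure D2:**
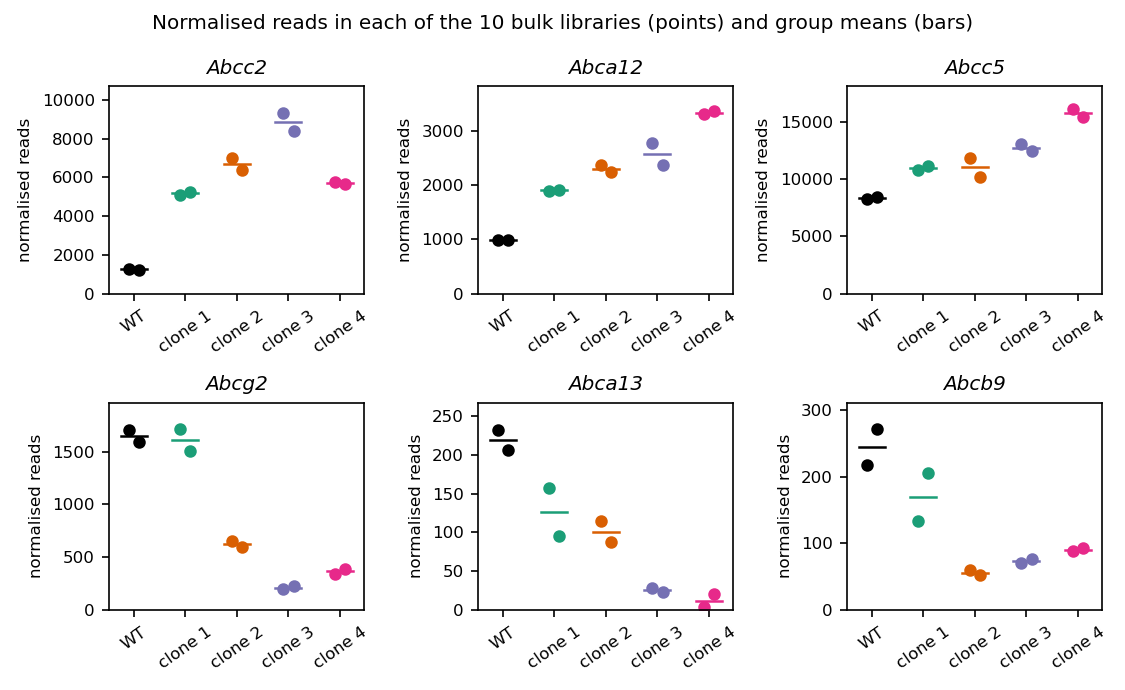
Normalised reads (y axis, linear from 0) of Abcc2, Abca12, Abcc5, Abcg2, Abca13 and Abcb9 in each of the 10 bulk libraries, 2 points per line and a bar at their mean. Abcc2 and Abca12 stand above WT in every knockout culture, and Abcg2 in clone 1 (1710 and 1506) overlaps WT (1702 and 1587) while clones 2 to 4 lie between 198 and 657.

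The members are given next by role, in groups with too few tested genes to show a direction of a group. Of all genes tested, 1.15%, 12%, 19.9% and 19.3% rose and 2.35%, 14.1%, 20% and 17.2% fell in clones 1 to 4. Among the exporters of drugs and conjugates, 7 were tested. In clones 1 to 4, 1, 2, 3 and 2 of them rose and 0, 1, 1 and 2 fell. Abcg2 was the member that differed most between clones. It had 1702 and 1587 normalised reads in WT and 1710 and 1506 in clone 1, but clone 2 had 657 and 601, clone 3 had 198 and 224 and clone 4 had 342 and 393. Clone 1 was thus at the WT level (difference -0.03, adjusted p = 0.928 by limma), and clones 2, 3 and 4 held 0.383, 0.128 and 0.224 of the WT reads. The falls were 1.17, 2.27 and 1.75 on the log2-like scale (SE 0.11, adjusted p-values by limma 5.03e-05, 4.66e-07 and 2.22e-06). The F test among the clones gave an adjusted p of 1.95e-06.

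Abcc5 (MRP5), which exports cyclic nucleotides and other organic anions, had 8304 and 8449 reads in WT and 10207 to 16117 in the knockout cultures. Its differences were 0.39, 0.39, 0.60 and 0.90, called in clones 2 (adjusted p = 0.0232), 3 (0.00168) and 4 (1.59e-04) by limma. In clone 2 the call was lost without the first or the second WT culture (adjusted p = 0.164 and 0.139) or the first clone 2 culture (0.123). Abcc1 (MRP1), the broad exporter of glutathione conjugates, rose in clone 3 alone, to 4477 and 4109 reads from 2369 and 2287 (difference 0.83, adjusted p = 2.72e-04 by limma), with 0.24, 0.14 and 0.29 in clones 1, 2 and 4. Abcb1b, one of the mouse P-glycoproteins, had 99 and 94 reads in WT and fell in clone 4 to 15 and 34 (difference -0.68, adjusted p = 0.00407). Its other differences were 0.20, -0.22 and -0.09. With the median of its chromosome, 5, removed, it was at -0.44 in clone 3 and called there too (adjusted p = 0.0343). Part of its reads may be shared with the near-identical Abcb1a. Abcc4 (MRP4) differed by -0.25 to 0.22 and Abcc10 (MRP7) by -0.08 to 0.56, with no call in any clone.

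The lipid transporters of lysosomes, lamellar bodies, retina and skin had 6 tested members, of which 1 rose in each clone, which was Abca12, and 0, 2, 3 and 2 fell in clones 1 to 4. Abca13, the largest protein of the family, had 232 and 206 reads in WT. Clone 1 had 158 and 96, clone 2 had 114 and 87, clone 3 had 28 and 23 and clone 4 had 5 and 20. All knockout cultures lay below WT, and clone 4 held 0.057 of its reads. The differences were -0.44, -0.59, -1.26 and -1.51, which the log2-like scale shrinks at such low reads, and the calls were in clone 2 (adjusted p = 0.0159), clone 3 (1.43e-04) and clone 4 (4.39e-05) by limma. The clone 2 call was lost without the first or the second WT culture (0.116 and 0.0677) and without the second clone 2 culture (0.104).

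Abca3, which fills the lamellar bodies of the lung with surfactant phospholipid, had 2846 and 2743 reads in WT and fell in clones 2 and 3, by 0.61 and 0.83 (adjusted p = 0.00972 and 0.00117 by limma). Its cultures of clone 4 were 2082 and 2997, apart from each other and astride WT, and the difference there was -0.15, with -0.45 in clone 1. The clone 2 call was lost without the first or the second WT culture (0.0805 and 0.0593), and Abca3 was called in clone 1 without either clone 4 culture and in clone 4 without the second of them. Abca8b, a lipid transporter of the A subfamily, had 448 and 443 reads in WT and 795 and 679 in clone 1 (difference 0.56, adjusted p = 0.0937). It fell in clones 3 and 4, to 202 and 132 and to 278 and 170 (differences -0.92 and -0.68, adjusted p = 0.00143 and 0.00797), with -0.20 in clone 2. The clone 4 call was lost without the first or the second WT culture (0.0515 and 0.05) or the second clone 4 culture (0.053). Reads of Abca8b may be shared with its neighbour and near-copy Abca8a. Abca2, a lysosomal lipid transporter, differed by -0.30 to 0.05 and Abca5, another, by -0.74 to 0.09, with no call. Abca5 was near the threshold in clone 4 (adjusted p = 0.0529 by limma). It was called there when no filter was applied (0.0489) and with chromosome medians removed (difference -0.84, 0.0448).

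The exporters of cholesterol and phospholipid had 2 tested members. Abca1, which loads cholesterol onto apolipoprotein A-I, had 4854 and 4810 reads in WT and 2786 to 4748 in the knockout cultures. The differences were -0.21, -0.56, -0.44 and -0.35, and only clone 2 was called (adjusted p = 0.0469 by limma), a call lost without either WT culture (0.182 and 0.174), without the second clone 2 culture (0.285) or without either clone 3 culture (0.0524 and 0.0525). Abca7, a phospholipid transporter and Alzheimer disease risk gene, lay above WT in all 8 cultures with differences of 0.26 to 0.41 and no call.

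In the mitochondrial and lysosomal B members, 0, 0, 1 and 1 of 4 rose in clones 1 to 4 and 0, 1, 1 and 1 fell. Abcb9 (TAPL), a peptide pump of the lysosome, had 217 and 272 reads in WT, 134 and 206 in clone 1, and 53 to 93 in clones 2 to 4. The differences were -0.32, -1.02, -0.88 and -0.75, called in clones 2 (3.5e-04), 3 (5.09e-04) and 4 (0.00147). Abcb8, a mitochondrial member, had 3090 and 3036 reads in WT and 4234 to 5566 in clones 3 and 4, where it rose by 0.54 and 0.72 (adjusted p = 0.0352 and 0.0104 by limma), with -0.09 and -0.03 in clones 1 and 2. The genes of chromosome 5 as a whole stood above the median of all genes by 0.34 in clone 3 and 0.23 in clone 4, and with chromosome medians removed Abcb8 was at 0.19 (adjusted p = 0.422) and 0.45 (0.0691), so both calls were lost. The clone 3 call was also lost without any 1 of the 4 cultures compared (0.0783 to 0.198), and that in clone 4 without either WT culture or the second clone 4 culture (0.056 to 0.0665). Abcb8 shares 5163 bases of its locus with Cdk5. Abcb10, a mitochondrial member tied to haem synthesis, differed by 0.00 to 0.20, with no call.

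Of the 3 tested D members, too few to show a direction, 0, 1, 2 and 1 fell in clones 1 to 4 and none rose. Abcd3 (PMP70), a peroxisomal importer of branched-chain and bile acid precursors, had 8278 and 8341 reads in WT and 4647 to 8068 in the clones. It fell in clones 3 and 4 by 0.63 and 0.71 (adjusted p = 0.00784 and 0.00468 by limma) and differed by -0.25 and -0.35 in clones 1 and 2. The clone 3 call was lost without the second WT culture (0.0529) or the second clone 3 culture (0.0643). Abcd4, which serves the release of cobalamin from lysosomes, had 790 and 758 reads in WT and 387 and 303 in clone 2. It fell there by 0.88 and in clone 3 by 0.56 (adjusted p = 6.48e-04 and 0.00494), the latter call being lost without the first clone 3 culture (0.0572), and it differed by -0.14 and -0.15 in clones 1 and 4. On chromosome 12 the median of all genes in clone 4 was raised by 0.23, and with that removed Abcd4 fell there too, by 0.41 (0.0191).

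The proteins that act on ribosomes had 4 tested members, of which 0, 0, 1 and 2 rose and none fell. Abcf2 had 6075 and 5765 reads in WT and 8759 to 9232 in clones 3 and 4, where it rose by 0.59 and 0.55 (adjusted p = 0.00138 and 0.00231), with 0.03 and 0.30 in clones 1 and 2. It too lies on chromosome 5, and with chromosome medians removed it was at 0.25 in clone 3 (0.066) and at 0.29 in clone 4 (0.041). Abcf3 rose in clone 4 alone, by 0.49 (0.00259), with 0.12, 0.26 and 0.01 in the others. Abce1, which splits ribosomes after termination, differed by 0.00 to 0.31, and Abcf1 by 0.04 to 0.29, with no call.

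The F test among the clones was passed by 14 of the 26 members, where 44.5% of all genes passed it. Under the filter, Abcg1, the exporter of cholesterol to high-density lipoprotein, had 41 and 44 normalised reads in WT, 24 and 16 in clone 1, and 0 to 7 in clones 2 to 4. Abca8a had 24 and 17 in WT, 27 and 17 in clone 1, and 0 to 4 in clones 2 to 4. When no filter was applied, Abcg1 fell in clones 2 to 4 by 0.67 to 0.81 (adjusted p = 0.0033, 0.000724 and 0.000832 by limma) and Abca8a by 0.39 to 0.65 (0.015, 0.00177 and 0.000647). Abca17, a rodent lipid transporter whose locus shares 138 bases with Abca3, had 28 and 23 reads in WT and 4 to 18 in the clones, and fell in clones 2 and 3 when no filter was applied (adjusted p = 0.0452 and 0.0112). The 5 others held few reads in every library, from 7 to 44 for Abca4, 3 to 54 for Abcb1a, 3 to 20 for Abcb6, 1 to 27 for Abcd2 and 1 to 29 for Abcg4. Of these, Abcd2 fell in clone 3 by 0.30 when no filter was applied (adjusted p = 0.0263).

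The promoters of Abcc2, Abca12 and Abcg2 are given here as sequence, to show what lies before the start sites of the genes that rose in each clone and of the one that split the clones. Of the 50 members, 38 had promoter entries in RefSeq (build GRCm38.p6), 45 start sites in all, and the 250 bases before each start were searched on both strands. The letters searched were CACGTG (the E-box), CATGTG (the core of the M-box read by MITF, the melanocyte transcription factor), TGACTCA (the AP-1 site), TGACNNNGC (the core of the antioxidant response element) and AGGTCA (the nuclear receptor half-site). The AP-1 and antioxidant motifs can overlap. Matches are in capitals and the rest in lower case. The Abcc2 window lies at chr19:43782058-43782307 on the plus strand, Abca12 at chr1:71414911-71415160 on the minus strand, and that of the third of 3 listed start sites of Abcg2 at chr6:58640296-58640545 on the plus strand.
Abcc2: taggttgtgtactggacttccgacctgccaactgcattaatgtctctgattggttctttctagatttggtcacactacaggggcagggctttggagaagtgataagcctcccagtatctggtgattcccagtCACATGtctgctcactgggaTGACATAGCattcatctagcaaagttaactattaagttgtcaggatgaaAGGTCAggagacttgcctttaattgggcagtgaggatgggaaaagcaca
Abca12: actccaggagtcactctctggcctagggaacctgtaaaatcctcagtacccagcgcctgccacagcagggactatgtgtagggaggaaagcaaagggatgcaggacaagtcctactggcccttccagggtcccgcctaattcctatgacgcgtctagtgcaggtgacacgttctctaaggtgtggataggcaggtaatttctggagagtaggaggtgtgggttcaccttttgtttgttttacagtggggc
Abcg2: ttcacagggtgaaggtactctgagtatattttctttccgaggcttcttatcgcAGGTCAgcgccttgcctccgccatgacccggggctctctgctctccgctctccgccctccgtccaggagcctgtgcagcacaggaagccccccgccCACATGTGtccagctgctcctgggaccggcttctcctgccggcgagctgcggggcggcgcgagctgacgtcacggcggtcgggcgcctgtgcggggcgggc

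The Abcc2 window held 1 match each to CATGTG, TGACNNNGC and AGGTCA, at 118, 98 and 49 bases before the start. No match to the 5 motifs was found in the Abca12 window. In the Abcg2 window the capitals mark AGGTCA at 197 bases and a pair of overlapping CATGTG matches at 101 and 99 bases before the start. The other start sites of Abcg2 are not printed, the third being shown because it held the most matches. The first had 2 matches to AGGTCA and the second had none. CATGTG was in 12.26% of all 32841 promoters and 13.33% of the members' promoters. AGGTCA was in 14.03% and 15.56%, TGACNNNGC in 10.16% and 8.89%, CACGTG in 6.02% and 11.11%, and TGACTCA in 4.46% and 0.0%. G and C bases made up 45.6% of the Abcc2 window, 53.2% of the Abca12 window and 67.6% of the Abcg2 window.

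Genes that work with the family were read from lists, each described by counts in clones 1 to 4. Beside them, 1.15%, 12%, 19.9% and 19.3% of all genes rose and 2.35%, 14.1%, 20% and 17.2% fell in clones 1 to 4. Tap1 and Tap2, ABC proteins under other symbols that pump peptides into the endoplasmic reticulum for antigen presentation, fell in all 4 clones, by 1.09 to 1.33 and by 1.31 to 1.86. Their largest adjusted p-values by limma were 0.00173 and 1.01e-04. They were the only listed genes outside the family called with one sign in all 4 clones. Of 11 targets of the oxidative stress factor NRF2 and genes of glutathione supply, 0, 4, 7 and 8 rose and 0, 1, 0 and 0 fell, with medians of 0.17, 0.15, 0.56 and 0.45. Srxn1, which repairs oxidised peroxiredoxins, differed by 0.17, 0.47, 1.42 and 1.62, and G6pdx, which makes NADPH, by 0.26, 0.65, 1.52 and 1.48, each called in clones 2 to 4. Of 9 enzymes that conjugate glutathione or glucuronide, 0, 1, 0 and 0 rose and 0, 2, 5 and 1 fell.

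Of 5 uptake carriers of organic anions and cations, 1, 0, 1 and 0 rose and 0, 3, 4 and 2 fell. Slco3a1 differed by -0.16, -0.71, -1.68 and -1.73. Of 11 targets of the sterol receptor LXR and partners of cholesterol efflux, 1, 1, 2 and 2 rose and 1, 3, 3 and 2 fell. Apoe, the lipid carrier of the latter list, differed by 0.94, -2.59, 0.06 and -0.81 and was called in clones 1, 2 and 4. Of 6 ceramide and barrier lipid genes that work around Abca12, 0, 0, 1 and 0 rose and 0, 0, 2 and 2 fell. Elovl4, which makes very long fatty acids, differed by -0.24, -0.17, -0.59 and -1.07.

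Of 16 nuclear receptors and factors known to act on ABC genes, 0, 0, 4 and 2 rose and 0, 4, 4 and 3 fell. Ahr, the receptor of aromatic pollutants, was at 0.09 in clone 1 and fell in clones 2 to 4 by 0.79, 0.77 and 1.31. Mitf differed by 0.10 to 0.25 with no call. Of 8 translation partners of Abce1 and Abcf1, 0, 1, 3 and 4 rose and none fell. Of 11 peroxisomal genes 0, 2, 3 and 4 rose and 0, 1, 4 and 0 fell. Of 14 genes of mitochondrial iron-sulphur clusters and haem 0, 2, 4 and 5 rose and 0, 0, 2 and 1 fell, and of 4 anchors of apical pumps 0, 0, 0 and 1 rose and 0, 0, 1 and 1 fell. The sulphonylurea receptors Abcc8 and Abcc9 and the pores of their potassium channel were not in the bulk table.

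In the tumours, 11591, 13087, 26128 and 9149 cells were kept in the matrices labelled WT skin and KO skin, then WT ocular and KO ocular. Cells were grouped without the ABC genes and classes were named from marker lists. Melanocytic-like cells numbered 5416, 7917, 3629 and 4385 in the same order, and macrophage-like cells 1595, 1431, 1844 and 607. Levels are summed UMIs (unique molecules) per 1000000 UMIs of a class, written CPM, and intervals are exact Poisson 95% intervals that cover counting error only. With 1 matrix of each kind there is no test. The title of the single-cell sample calls the dissociated tumour tissues multiplexed. Whether pooling bears on levels or on ratios between matrices was not tested. No whole barcode was shared between matrices, and the first 16 bases were shared by 1793 to 2417 barcodes in each pair of the matrices labelled WT skin, KO skin and KO ocular and by at most 4 in pairs with WT ocular. The WT ocular matrix stood apart, with 16-base barcodes, 32285 genes listed and a median of 1864 UMIs in melanocytic-like cells, where the others had 24-base barcodes, 19059 genes and medians of 3955 to 10564. Its levels are given beside the others without a ratio between matrices.

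RNA of melanocytic cells was found in every class. Melanocytic markers made up 7.0%, 4.97%, 1.26% and 6.26% of UMIs in melanocytic-like cells and 3.01%, 2.93%, 0.785% and 3.28% in macrophage-like cells. In the WT ocular matrix rod-like cells, at 1.11%, and neutrophil-like cells, at 1.07%, came near the melanocytic-like level. Macrophage markers made up 1.44%, 1.36%, 0.357% and 1.05% of UMIs in macrophage-like cells and 0.00725% to 0.02% in melanocytic-like cells. Unnamed clusters that carried the melanocytic markers held 814, 1853, 4983 and 1195 cells. These counts leave out further clusters with such markers that were led by genes chosen, after the clusters were seen, to mark other cells. Unnamed cells of every kind numbered 2469, 2361, 7715 and 1633 and were left out of both classes.

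Of the 50 members, 40, 36, 34 and 38 had at least 20 UMIs in the 2 classes together. Melanocytic-like cells held at least 2-fold more than macrophage-like cells of 16, 12, 0 and 10 members, in the order WT skin and KO skin, then WT ocular and KO ocular, and at least 2-fold less of 11, 11, 11 and 12. Over all genes the shares at least 2-fold higher were 30.6%, 32.1%, 1.83% and 27.2%, and those at least 2-fold lower were 15.6%, 15.3%, 11.4% and 15.4%.

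**Figure D3:**
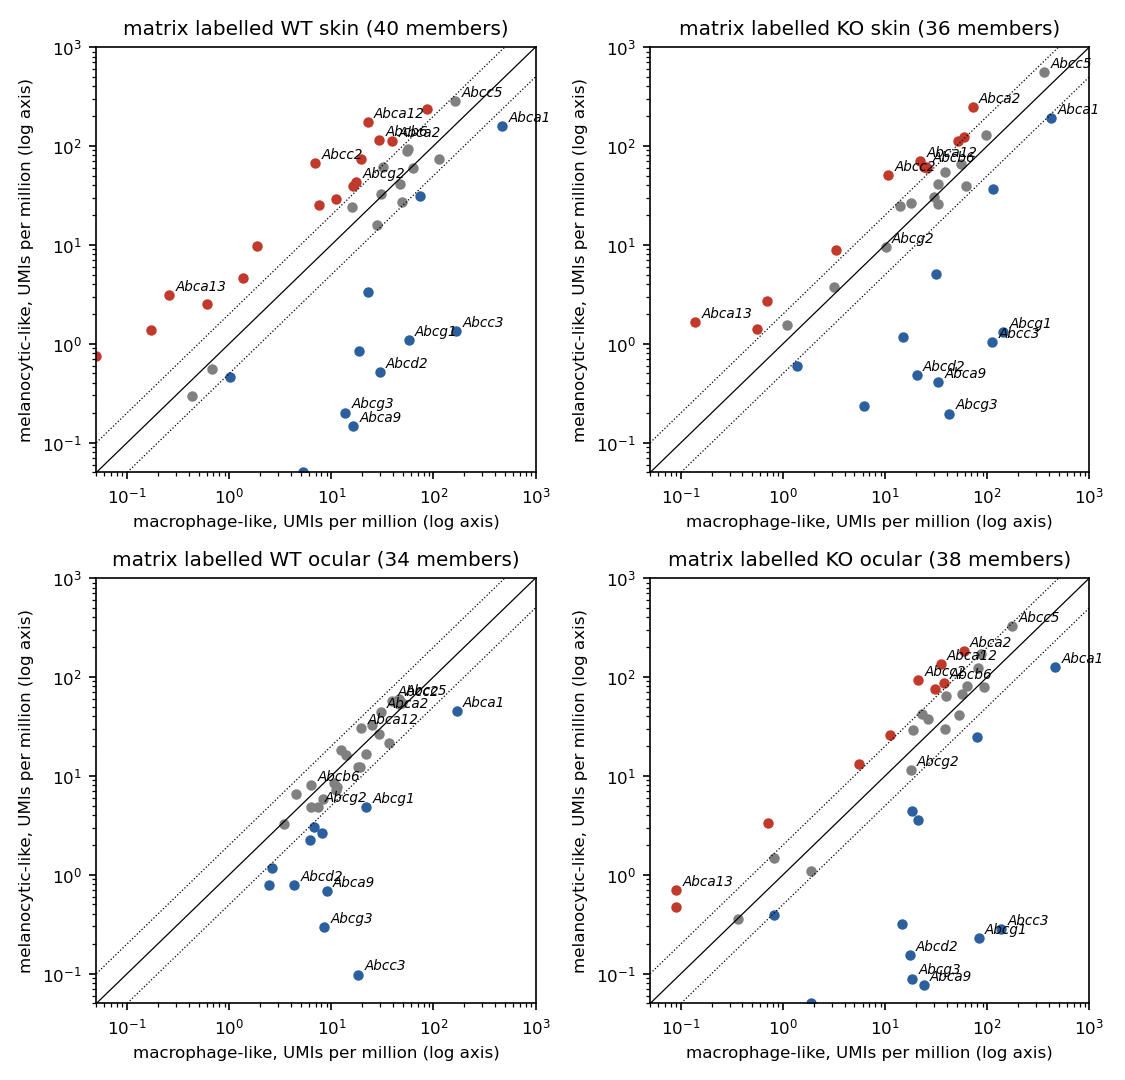
Level of each ABC gene in melanocytic-like (y axis) against macrophage-like cells (x axis), in CPM on log axes, in the 4 matrices (40, 36, 34 and 38 members), with a solid line of equality and dotted lines at 2-fold; red is at least 2-fold higher in melanocytic-like cells, blue at least 2-fold lower, grey within, and points at the axis edge are at or under 0.05 CPM. Abcc2 and Abca12 are red in every matrix but WT ocular, where no member is red, and Abcc3, Abcg1, Abcg3, Abca9 and Abcd2 are blue in each.

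Abcc2 stood at 67.4 CPM (65.2 to 69.6) in melanocytic-like cells of WT skin and at 6.93 (5.51 to 8.62) in macrophage-like cells, a ratio of 9.71 (7.8 to 12.3). The pairs were 50.4 and 10.8 in KO skin (ratio 4.68), 57.6 and 38.9 in WT ocular (1.48) and 93.6 and 21.0 in KO ocular (4.46). Abca12 stood at 174 (170 to 177) and 22.8 (20.1 to 25.7) in WT skin, a ratio of 7.62. Its pairs were 70.6 and 22.1 in KO skin (3.20), 30.6 and 19.5 in WT ocular (1.57) and 134 and 34.9 in KO ocular (3.85). In WT skin the ratios of both genes were larger than that of the melanocytic markers in the same classes, which were at 7.0% and 3.01%. In WT ocular, with markers at 1.26% and 0.785%, they were not. The level of Abca12 in the classes of WT skin other than macrophage-like cells ran from 31.1 in neutrophil-like cells to 136 in a cluster with hepatocyte RNA, whose melanocytic marker share was 5.83%.

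Of the other members that reached 20 CPM in melanocytic-like cells of some matrix, 5 stood at least 2-fold above macrophage-like cells in the 3 matrices other than WT ocular. These were Abca2 (111, 245 and 182 CPM in melanocytic-like cells of WT skin, KO skin and KO ocular, against 39.2, 71.7 and 58.6 in macrophage-like cells), Abcb6 (115, 61.9 and 86.3 against 29.4, 25.3 and 37.6), Abcb8 (73.7, 60.9 and 76.3 against 19.3, 24.2 and 30.9), Abcc10 (29.2, 60.4 and 25.8 against 11.1, 25.7 and 11.2) and Abca5 (25.4, 8.83 and 13.2 against 7.62, 3.31 and 5.56). Abcb6 is a porphyrin transporter of mitochondria, lysosomes and melanosomes. Abcd3 was at 238, 113 and 171 against 86.5, 51.2 and 87.4, and passed 2-fold in both skin matrices. Abcc4 passed 2-fold in WT skin (39.4 against 16.4), as did Abcg2 (43.3 against 17.6), and Abcf3 in KO skin (123 against 59.5). In WT ocular the same 9 members had ratios of 0.66 to 1.48.

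Macrophage-like cells held more of another set. Abca1 was at 470, 424, 170 and 462 CPM in the 4 matrices, in the same order, against 158, 191, 45.5 and 125 in melanocytic-like cells. Abcc3 (MRP3), an exporter of glucuronides and bile acids, was at 167, 111, 18.3 and 137 against 1.34, 1.04, 0.0977 and 0.28. Abcg1 was at 57.1, 143, 22.0 and 82.6 against 1.08, 1.31, 4.79 and 0.229, the value of WT ocular moving between 2.71 and 7.2 under the alternatives. In these cells the pair that exports cholesterol, Abca1 and Abcg1, was higher than in melanocytic-like cells in all 4 matrices. Abcg3 was at 8.52 to 42.4 against 0.089 to 0.293, Abca9 at 8.98 to 33.1 against 0.0763 to 0.684, and Abcd2, a peroxisomal importer of very long fatty acids, at 4.33 to 29.9 against 0.153 to 0.782. The P-glycoproteins Abcb1b (8.05 to 22.9 against 1.18 to 4.41) and Abcb1a (2.48 to 18.8 against 0.233 to 0.842) were also higher. Without the top 5% of cells by doublet score Abcb1b was at 6.75 in melanocytic-like cells of WT ocular in place of 2.64. Abcd4 passed 2-fold in KO skin (31.2 against 5.05), WT ocular and KO ocular but not in WT skin (28.0 against 15.8).

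The members within 2-fold in every matrix included Abcc5, at 284, 553, 59.7 and 326 in melanocytic-like cells against 162, 363, 46.1 and 176. Abcc1 was at 74.3, 129, 21.7 and 78.6 against 113, 96.1, 36.5 and 93.8. The ribosome proteins Abce1, Abcf1 and Abcf2 had ratios of 0.87 to 1.63, Abca3 of 0.65 to 0.96, Abca7 of 0.66 to 1.43 and Abcb10 of 0.80 to 1.54. The summed melanocytic markers also lay within 2-fold outside WT skin. They were at 4.97% and 2.93% of UMIs in KO skin, 1.26% and 0.785% in WT ocular and 6.26% and 3.28% in KO ocular. A level within 2-fold thus does not show that macrophage-like cells express a member themselves. Abca4 reached 21.8 in macrophage-like cells of WT ocular, where rods and cones of the retina were in the same suspension, and was at most 3.33 in melanocytic-like cells of the other matrices. A further 20 members stayed under 20 CPM in both classes of every matrix. The highest of them were Abcb1a, Abca8b (9.80), Abca8a (6.35), Abcb4 (5.31), Abcb9 (4.63), Abcc9 (3.41), Abca13 (3.08), Abca17 (2.55) and Abcg4 (1.40). Abca6, Abca14, Abca15, Abca16, Abcb5, Abcb11, Abcc6, Abcc8, Abcc12, Abcg5 and Abcg8 were under 1 CPM, among them Abcb5, a member known from melanoma, at no more than 0.197.

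Members were also read in other classes. Abcc9, the sulphonylurea receptor of vascular potassium channels, was at 221, 343, 104 and 390 CPM in endothelial-like cells and at most 3.41 in melanocytic-like or macrophage-like cells. In fibroblast-like cells it was at 26.7, 63.3, 27.7 and 77.9. No class of pericyte-like or smooth muscle-like cells was named in any matrix, so such cells were not read apart from these classes. Abcg2 was at 88.3, 53.3, 68.0 and 195 in endothelial-like cells. Abca4, the retinoid flippase of photoreceptors, was at 88.5 in rod-like and 129 in cone-like cells of WT ocular and at 162 in pigment epithelium-like cells of KO ocular. Abca8a was at 359 and Abca8b at 104.5 in Müller glia-like or astrocyte-like cells of WT ocular. Abcb11, the bile salt pump of the liver, was at 37.6 in the cluster with hepatocyte RNA in WT skin. In monocyte-like cells the member with the highest ratio to melanocytic-like cells was Abca9 in WT skin, WT ocular and KO ocular, at levels of 64.7, 8.27 and 66.2, and Abcg3 in KO skin (55.7). Abcg1 stood above these by level in WT ocular (14.3) and KO skin (102). Fibroblast-like cells held Abca8a at 60.6 in KO skin. The class named keratinocyte-like or corneal-like in KO ocular held Abcg1 at 207. Its cluster was led by Muc4, Psca and Plet1, which the lists used in naming placed under conjunctiva.

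Between the tumours, Abcc2 and Abca12 did not lie as they did in culture. In melanocytic-like cells the ratio of KO skin to WT skin was 0.75 (0.71 to 0.79) for Abcc2 and 0.41 (0.39 to 0.42) for Abca12. That of KO ocular to WT skin was 1.39 (1.34 to 1.45) for Abcc2 and 0.77 (0.75 to 0.80) for Abca12, a comparison in which genotype and site both differ and cannot be told apart. Both genes were higher in KO ocular than in KO skin, with ratios of 1.86 and 1.90. Bap1 itself was at 42.0 CPM in WT skin and 48.8 in KO skin, a ratio of 1.16, so its level did not set the matrix labelled KO skin below the matrix labelled WT skin. The position of the edit relative to the probes or reads of Bap1 was not given in the sources used here. In KO ocular the Bap1 ratio to WT skin was 0.80.

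Abcg2 was lower in both matrices labelled KO. It stood at 43.3 CPM (41.6 to 45.1) in WT skin, 9.51 (8.72 to 10.4) in KO skin and 11.4 (10.7 to 12.2) in KO ocular, ratios of 0.22 (0.20 to 0.24) and 0.26 (0.24 to 0.28). Both levels were under the macrophage-like level of the same matrix (10.1 and 17.8), so that expression above the background of the suspension was not shown there. In bulk, clones 2 to 4 had ratios of 0.128 to 0.383 and clone 1 of 0.978. WT ocular, of the other kind of library, was at 4.89 (3.63 to 6.44).

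**Figure D4:**
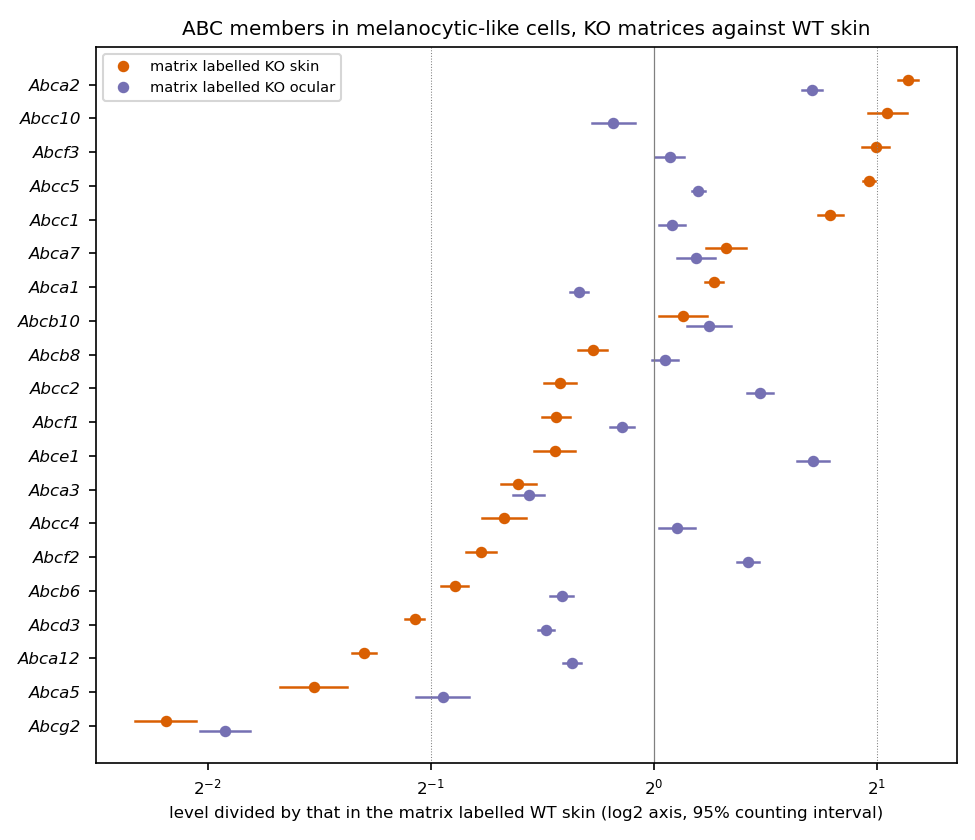
Ratio of the level in melanocytic-like cells of KO skin (orange) and KO ocular (purple) to WT skin (x axis, log scale), with exact 95% counting intervals, for the reported members with at least 20 CPM in 1 of the matrices. Abcc2 is at 0.75 and 1.39, Abca12 at 0.41 and 0.77, and Abcg2 at 0.22 and 0.26.

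Of 40 members with enough UMIs, 4 were at least 2-fold higher and 11 at least 2-fold lower in melanocytic-like cells of KO skin than of WT skin, where 18.7% and 11.4% of all genes were. The lower ones included Abcd3 (0.48), Abca5 (0.35), Abcd4 (0.32) and Abca8b (0.16), and the higher ones Abca2 (2.20) and Abcc10 (2.07). Against WT skin, KO ocular had 1 of 37 members higher and 11 lower, where 9.09% and 15.3% of all genes were. Against KO skin it had 4 of 38 higher and 9 lower, beside 5.97% and 17.3%. Macrophage-like cells come from the host but also held melanocytic RNA. Melanocytic markers made up 3.01%, 2.93% and 3.28% of their UMIs in WT skin, KO skin and KO ocular. Ratios between matrices in this class can therefore include RNA of melanocytic cells. In macrophage-like cells, 6 of 34 members were at least 2-fold higher and 3 lower in KO skin than in WT skin, beside 9.74% and 6.43% of all genes. Abcg1 was among the higher ones, at 143 and 57.1. In KO ocular 1 of 33 was higher and 2 lower than in WT skin (5.58% and 5.91% of all genes), and 2 of 32 were higher and 3 lower than in KO skin (5.95% and 7.26%).

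Within the melanocytic-like cells, Abcg2 kept WT skin apart from the KO matrices in every cluster of at least 50 cells. It ran from 37.8 to 52.2 CPM across clusters of WT skin, from 4.0 to 13.8 in KO skin and from 9.2 to 13.9 in KO ocular. The share of all genes whose clusters separate in this way is not given here. Abcc2 ran from 51.9 to 142, from 29.9 to 72.5 and from 50.7 to 165, so that clusters of the 3 matrices overlapped. Abca12 ran from 78.1 to 229, from 51.7 to 92.2 and from 103 to 180. Clusters of 1 matrix are parts of 1 tumour and not replicates.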

How the data were processed

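Bulk RNA-seq libraries of 10 cultures were made with a stranded polyadenylated-RNA kit, per the labels' protocols. The deposited bulk values were variance-stabilised and on a log2-like scale that flattens at low reads, so that differences of low genes are understated. The submitters' processing notes name GRCm38 and mm10. Not given in the sources used here were the aligner, the counter and the package of the transformation. Inverting the transformation gave whole reads for 100% of values (tolerance 0.01). Genes with a mean at least 1 above the lowest value were tested with limma 3.58.1 (R 4.3.3) with a mean-variance trend over 5 groups, and p-values were Benjamini-Hochberg adjusted over all 10803 genes, two-sided, with a threshold of 0.05. A difference is a clone minus WT. edgeR 4.0.16 and DESeq2 1.42.0 on the recovered reads were alternatives, beside other filters and scalings, a replicate block, removal of chromosome medians and leaving out each culture.

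Single-cell counts of UMIs were deposited as 4 filtered matrices by the authors, made with Cell Ranger 8.0.0 for 3 and 7.0.0 for WT ocular, per the file headers, with 88752744 and 91229456 UMIs in WT skin and KO skin, and 108623160 and 115566352 in WT ocular and KO ocular. Cells with at least 500 UMIs, 300 genes and at most 20% mitochondrial UMIs were kept and clustered in scanpy 1.11.5 (2000 variable genes without the ABC genes, 30 components, 15 neighbours, Leiden resolution 1). Clusters were named from marker lists, with further genes that bar a name chosen after the clusters were seen. The doublet caller Scrublet marked 0, 1, 0 and 143 cells and so did not work in the first 3 matrices; no cell was removed as a doublet. UMIs were summed per class. A member was compared between classes where they held at least 20 of its UMIs, and a level of 0 was set to a floor of 3 counts for a bound. Whole-genome and whole-exome libraries were not analysed here.

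The members and lists were chosen with earlier results of these data known. Members called in at least 1 clone are given with their 4 differences, those called in all 4 clones with their reads in every library, and other tested members by their range. In single cells, members are given by level where melanocytic-like or macrophage-like cells of some matrix reached 20 UMIs per 1000000. The values of 2 members are not reported here, though counts over the family include them. The limma fits of clone 1 against WT and of the clone as the unit were run on simulated reads.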

Additional observations from a re-analysis of the deposited data

Results flagged for a closer look

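A limma F test among the 4 clones found that the difference from WT was not the same in each clone for 14 of 26 tested ABC genes. The test has the 2 cultures of each clone as its replicates, so it measures clones against the spread between cultures. The adjusted p-values were 1.95e-06 for Abcg2, which was at the WT level in clone 1 and fell in clones 2 to 4, and 0.000313 for Abca8b, which was above WT in both cultures of clone 1 and fell in clones 3 and 4. They were 0.00084 for Abca13, 0.00113 for Abcc2, 0.00149 for Abca12, 0.00229 for Abcd4, 0.00256 for Abcc1, 0.00427 for Abcb1b and 0.00482 for Abcf2. They were 0.00713 for Abcb9, 0.00897 for Abcb8, 0.00916 for Abcc5, 0.00986 for Abcf3 and 0.0147 for Abca3. Abcc2 and Abca12 rose in all 4 clones, so their difference is one of size. Among all genes 44.5% passed the same test.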

How the results depend on the processing

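Of the differences of tested members in single clones, 1770 values under the alternatives kept their side of the threshold. A further 55 passed it where the main value had not, and 35 no longer passed it. Where the main or the alternative value passed the threshold, 0 reversed direction. The 1770 include values not called in either fit whose sign changed, such as Abce1 in clone 4 (0.005, and -0.10 with chromosome medians removed). Leaving out each culture in turn gave 2 to 4 ABC genes called in clone 1 (4 without either clone 4 culture), 5 to 14 in clone 2, 11 to 14 in clone 3, 10 to 16 in clone 4, 2 to 3 in all 4 clones with one sign, 13 to 17 in the F test and 0 to 0 with the clone as the unit. With the clone as the unit DESeq2 called 2 members, and the number of all genes it called is not given here. The replicate numbers were not taken to pair the cultures: correlations ran from -0.128 to 0.727 and were over 0.1 in 5 of 10 pairs of groups, all 5 between knockout clones and none with WT. In a fit with a replicate block, 14 members were called in clone 2 in place of 9. The cause of these moves was not tested. The share of all genes called under these alternatives is not given here, so the moves cannot be set against genes in general. In WT ocular, members at least 2-fold apart between melanocytic-like and macrophage-like cells went from 11 to 7 when the top 5% of cells by doublet score were left out, and at a resolution of 0.5 that matrix gave no such pair of classes. Counting unnamed clusters with melanocytic markers as melanocytic-like was an alternative chosen after the clusters were seen. Clusters led by genes chosen to mark other cells were not added in it. It is among the alternatives under which 623 single-cell levels stayed within their counting interval and 135 moved. Depth limits the members with few reads or UMIs, and 1 matrix of each kind gives no replicate error.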

Other observations

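Abcb6, the porphyrin transporter, was barely read in the bulk libraries and well read in the tumour matrices other than WT ocular. It had 3 to 20 normalised reads in every culture, WT included. In melanocytic-like cells it stood at 115 CPM (112 to 118) in WT skin, 61.9 (59.9 to 64.0) in KO skin and 86.3 (84.3 to 88.4) in KO ocular, against 8.11 (6.46 to 10.1) in WT ocular. In the last matrix, which had another barcode length, gene list and Cell Ranger version, Abcb6 was thus low again, while Abcc2 was not, at 57.6. Whether the kind of library set these levels was not tested.

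Abcg2 had its highest levels outside the melanocytic-like cells in endothelial-like cells, and in the matrices labelled KO skin and KO ocular endothelial-like cells held 53.3 (40.4 to 69.1) and 195 (169 to 223) CPM against 9.51 and 11.4 in melanocytic-like cells. Its endothelial level in WT skin was 88.3 (72.8 to 106).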
